A study of Mus musculus with 12 samples.

Results

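The 43 genes described here encode the machinery that builds and serves the photoreceptor cilium: the intraflagellar transport (IFT) complexes IFT-A and IFT-B, the BBSome with its chaperonins and small GTPase, proteins of the transition zone or connecting cilium, and the carriers of lipidated cargo. They were chosen by gene name, with 5 genes of IFT-A, 13 of IFT-B, 10 of the BBSome group, 10 of the transition zone and 5 of lipidated cargo, out of 55866 gene names in the scaled count table. Each member was found once in that table and once in the table of TPM values, a level corrected for transcript length and library size, and all 43 passed the filter on low values in every comparison.

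The outer segment of a rod is a modified primary cilium, joined to the cell body by the connecting cilium, which corresponds to the transition zone of other cilia. IFT-B particles move cargo outward with kinesin, IFT-A particles take part in return transport with dynein, and the BBSome is an adaptor that removes membrane proteins from the cilium. Transition zone proteins form a gate at the base, and UNC119 and PDE6D shield the lipid anchors of soluble proteins, which ARL3 in its GTP-bound form releases in the cilium. Loss of many of these genes is known for retinal degeneration, alone or as part of a syndrome.

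RNA was sequenced from 12 libraries of 2-month-old mice, with 3 libraries in each of 4 groups. Controls were littermates of the genotype RiboTag;i75-Rod-Cre, and Abca4Ko mice were RiboTag;Abca4-/-;i75-Rod-Cre, so that every animal carried the RiboTag allele and the rod Cre. RiboTag is an allele of the ribosomal protein gene Rpl22 that gains an epitope tag where Cre acts, here under a rhodopsin promoter in rods, so that translating ribosome affinity purification (TRAP) pulls down ribosome-bound RNA of rods. Retina libraries were made from the lysate before the pull-down. Cycloheximide, which holds ribosomes on the RNA, was given by perfusion before the tissue was frozen, and fewer cells of a type and less RNA per cell cannot be told apart in either fraction.

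Abca4, the gene of the disc flippase deleted in Abca4Ko, had 53193 to 61017 scaled counts in control rod TRAP and 37619 to 38929 in control retina. The libraries labelled Abca4Ko replicates 1 and 2 held 0.349% to 0.958% of the control mean of their fraction. Both libraries labelled Abca4Ko replicate 3 held more, 23.5% in rod TRAP and 21.3% in retina, so the genotype results below are also given without them. Rod markers rose in control rod TRAP against retina in 10 of 10 genes, and the Müller glia, amacrine cell, ganglion cell and microglia markers fell in 10 of 10 each. Cone markers fell in 9 of 10, while the other, Cngb3, was called higher (log2 fold change 0.88). Bipolar cell markers fell in 9 of 10, while the other, Prkca, was called higher (1.57). Vascular and retinal pigment epithelium markers fell in 9 of 10 each, and the other of each was not called. Of all genes tested in this comparison, 36.6% were called higher and 38.8% lower.

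The members differed widely in base composition, and the coding sequences of the extremes are shown because the fraction differences below varied with it. The opening 90 coding bases (GENCODE M21 on GRCm38) of the 2 members with the lowest and the 2 with the highest GC content follow, with G and C in capitals.
Cep290: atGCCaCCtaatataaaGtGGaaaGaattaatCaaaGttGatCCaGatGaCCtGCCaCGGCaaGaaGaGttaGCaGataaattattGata
Ift74: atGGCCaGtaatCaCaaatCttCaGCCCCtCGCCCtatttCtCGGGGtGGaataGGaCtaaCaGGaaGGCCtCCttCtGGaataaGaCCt
Unc119: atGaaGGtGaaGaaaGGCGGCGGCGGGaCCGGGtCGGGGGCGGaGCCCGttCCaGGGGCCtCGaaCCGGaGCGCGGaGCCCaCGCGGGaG
Nphp4: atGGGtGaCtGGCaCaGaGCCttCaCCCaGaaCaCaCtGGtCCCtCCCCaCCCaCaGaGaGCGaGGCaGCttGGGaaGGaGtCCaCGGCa
Over the whole coding sequence the GC content was 38.8% in Cep290, 39.4% in Ift74, 59.8% in Unc119 and 60.5% in Nphp4. The median of the 43 members was 47.5%, against 53.3% over the genes with at least 10 scaled counts in 3 or more libraries. Within the 90 bases shown, G or C made up 32 positions in Cep290 and 67 in Unc119.

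Promoters were searched for the X-box, the motif of the ciliary transcription factors of the RFX family, and for the motif of the photoreceptor factor CRX. Of the 43 members, 40 had a RefSeq promoter window of 250 bases before to 50 after the start (GRCm38.p6). The X-box was written as GTTNCC, 0 to 3 bases and GGNAAC, and it was found on either strand in 3 of the 40 members (7.50%), against 0.936% of 27025 genes. The arm GTTNCC alone, which is part of each X-box, was present in 29 of 40 members (72.5%), against 48.8% of genes. TAATCC, for CRX, was present in 3 of 40 (7.50%), against 8.14% of genes. The windows of 60 bases that hold the matches before the start are shown on the strand of the gene with the match in capitals, first the X-box of Bbs7 (chr3:36613474-36613533, minus strand) and Ift57 (chr16:49699210-49699269, plus strand), then the CRX motif of Rpgrip1 (chr14:52110843-52110902, plus strand), Unc119 (chr11:78345439-78345498, plus strand) and Bbs1 (chr19:4906792-4906851, minus strand).
Bbs7: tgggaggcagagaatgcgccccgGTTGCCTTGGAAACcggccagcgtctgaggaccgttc
Ift57: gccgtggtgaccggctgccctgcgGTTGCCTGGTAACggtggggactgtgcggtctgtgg
Rpgrip1: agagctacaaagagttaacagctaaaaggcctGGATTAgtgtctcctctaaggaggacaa
Unc119: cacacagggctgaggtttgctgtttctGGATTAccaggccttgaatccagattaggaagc
Bbs1: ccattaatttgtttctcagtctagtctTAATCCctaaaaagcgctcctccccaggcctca
The X-box of Ahi1 lay after the start and is not shown. In Rpgrip1 and Unc119 the CRX motif stood on the opposite strand and reads GGATTA here. A match describes letters only and was not tested against binding.

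In TPM the members of control rod TRAP ranged from 10.4 ± 1.51 for Rpgr to 6021 ± 108 for Unc119 (mean ± SD, n = 3 here and below). The median over the 43 members was 52.1 TPM in control rod TRAP, 54.3 in Abca4Ko rod TRAP, 21.3 in control retina and 24.3 in Abca4Ko retina. The 5 highest in control rod TRAP were Unc119, the carrier of acylated transducin, Arl3 at 1161 ± 55.7 TPM, the BBSome GTPase Arl6 at 570 ± 18.2, the carrier of prenylated proteins Pde6d at 320 ± 17.4 and the BBSome subunit Bbs7 at 269 ± 14.1. The SDs of these neighbours in the order did not meet. Arl6 and Bbs7 were thus high in rods, while in control retina Arl6 had 128 ± 41.1 TPM and Bbs7 42.7 ± 13.0.

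**Figure D1:**
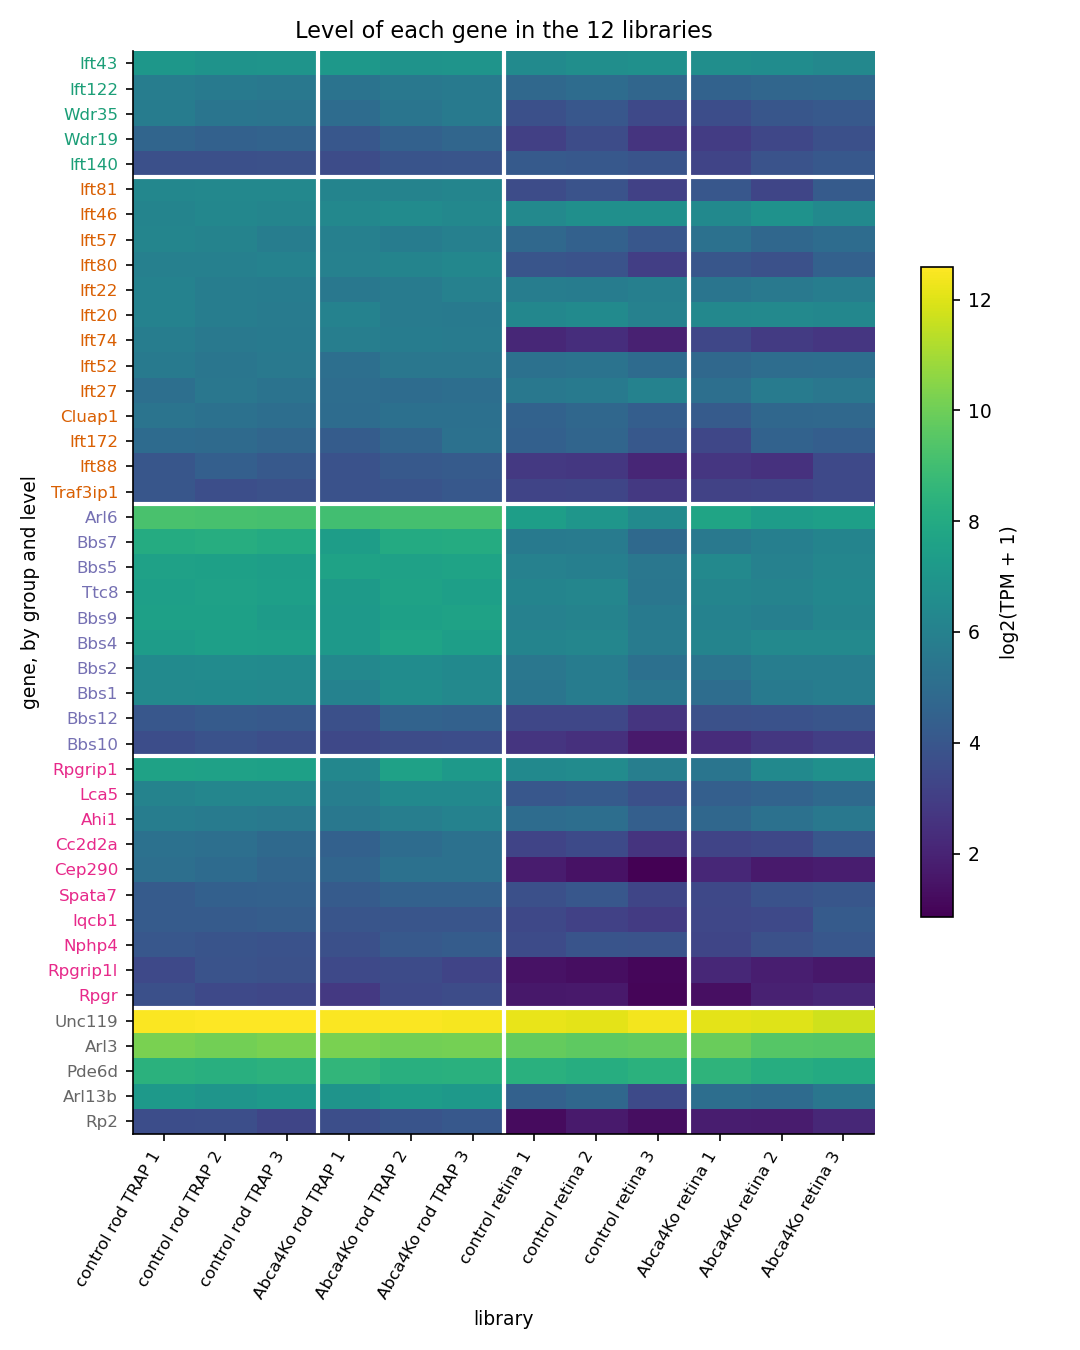
Level of each of the 43 genes, as log2(TPM + 1) by colour, in each of the 12 libraries (columns, 3 for each of 4 groups). Genes (rows) are grouped from top to bottom as IFT-A, IFT-B, BBSome, transition zone and lipidated cargo and ordered by their level in control rod TRAP. Unc119 and Arl3 are bright in every library, while Arl6, Cep290, Ift74, Rpgrip1l and Rp2 are darker in retina than in rod TRAP libraries.

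Levels in the lipidated cargo group differed widely. In control rod TRAP, the GTPase Arl3 and the carriers Unc119 and Pde6d had means of 320 TPM or more. Arl13b, the exchange factor that loads ARL3 with GTP, had 139 ± 11.7 TPM, and Rp2, which stimulates hydrolysis of that GTP, had 10.6 ± 1.64 TPM. Levels in the BBSome group differed too, and its GTPase Arl6, at 570 TPM, stood above every subunit. Bbs1, Bbs2, Bbs4, Bbs5, Bbs7, Bbs9 and Ttc8, which build the complex, had 81.9 to 269 TPM, while Bbs10 and Bbs12, chaperonin-like proteins needed for its assembly, had 12.1 ± 0.862 and 16.7 ± 1.10 TPM. Among transition zone genes, Rpgrip1, the scaffold that holds RPGR in the connecting cilium of photoreceptors, stood highest at 189 ± 6.44 TPM and its relative Rpgrip1l had 11.9 ± 1.72 TPM.

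Rod TRAP was compared with retina in control to ask which members were concentrated in the ribosome-bound RNA of rods. By limma's moderated test with Benjamini-Hochberg adjustment over 16286 genes, 39 of the 43 members were higher in rod TRAP and 0 were lower, also at an unadjusted p under 0.05. Among all genes tested, 36.6% were higher and 38.8% were lower. The median log2 fold change was 1.42 over the members and -0.03 over all genes, and the members ranged from -0.16 for Ift46 to 4.51 for Cep290. Of the 43, 30 exceeded a log2 fold change of 1, 15 exceeded 2 and 6 exceeded 3. The shares of all genes past these values were not counted, and large values were common among GC-poor genes. The upper quartile of all genes was 2.86 up to 42% coding GC and 2.28 at 42% to 46%. At 46% to 50% it was 1.47, and at 50% to 54% it was 0.74. The 10 rod markers of the same libraries had a median of 1.33 and ranged from 1.01 to 4.65.

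**Figure D2:**
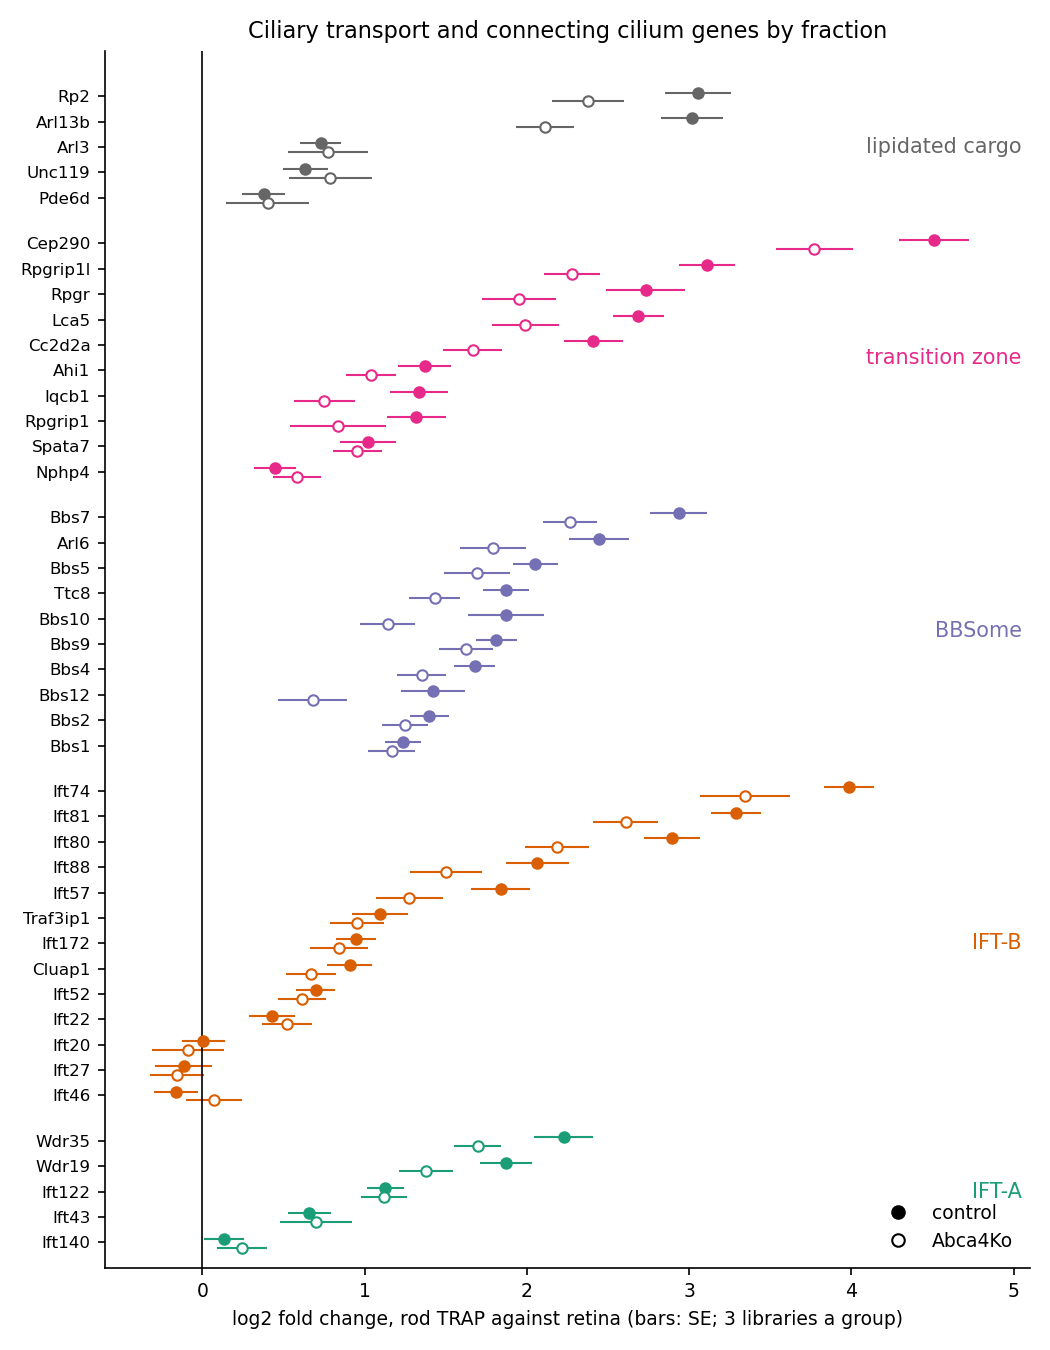
Log2 fold change of rod TRAP against retina (horizontal axis) for each of the 43 genes, with filled circles for control and open circles for Abca4Ko, and bars for the SE of the limma fit with 3 libraries a group. Genes are ordered within their group by the control value. Most points lie right of 0, Ift46, Ift27, Ift20 and Ift140 lie near it, and 35 of 43 open circles lie left of their filled circle.

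IFT-A was higher in rod TRAP for 4 of 5 genes, and their median difference was 1.13 on the log2 scale. Wdr35 (IFT121), a subunit of the complex, had 54.1, 42 and 39.7 TPM in control rod TRAP and 12.3, 15.3 and 9.7 TPM in control retina. The groups did not overlap, and the log2 fold change was 2.23 ± 0.18 (SE; limma adjusted p = 1.52e-07). Ift140, another subunit, was not called. It had 12.3, 12.2 and 12.4 TPM in rod TRAP and 16.8, 16.0 and 14.1 TPM in retina, so in TPM all 3 rod TRAP libraries were lower, while the scaled fit gave a log2 fold change of 0.13 ± 0.12 (limma adjusted p = 0.335). Wdr19 (log2 fold change 1.87), Ift122 (1.13) and Ift43 (0.66) lay between them. 

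IFT-B was higher for 10 of 13 genes, with a median of 0.95 and values from -0.16 to 3.99. Ift74, which with IFT81 forms the tubulin-binding module, had 56.4, 47.0 and 48.8 TPM in control rod TRAP and 3.5, 4.2 and 2.8 TPM in control retina. Every rod TRAP library was far above every retina library, with a log2 fold change of 3.99 ± 0.15 (limma adjusted p = 3.77e-10). Its partner Ift81 had a log2 fold change of 3.29 ± 0.15. Ift46, a subunit of the IFT-B core, had 68.8, 76.2 and 71.7 TPM in rod TRAP and 80.7, 103.9 and 102.8 in retina. The log2 fold change of Ift46 was -0.16 ± 0.13 (limma adjusted p = 0.291), so it was not called. It was called lower under the authors' scaling alone (-0.80, limma adjusted p = 0.000222) and with log2(TPM + 1) (-0.39, adjusted p = 0.0181), and in TPM all 3 rod TRAP libraries lay below all 3 retina libraries. Ift20 (0.01) and the small GTPase Ift27 (-0.12) were not called either. Traf3ip1 (IFT54), the partner of IFT20 in a dimer, had a log2 fold change of 1.10, and the dimer partners Ift57 and Cluap1 (IFT38) had 1.84 and 0.91; differences between genes were not tested. Ift80 (2.89), Ift88 (2.06), Ift172 (0.95), Ift52 (0.70) and the GTPase-like Ift22 (0.43) were higher in rod TRAP.

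All 10 genes of the BBSome group were higher in rod TRAP, from 1.24 to 2.94 around a median of 1.84 on the log2 scale. Bbs7, a subunit of the complex itself, had 264.6, 284.8 and 257.7 TPM in control rod TRAP and 48.7, 51.6 and 27.8 TPM in control retina. The groups stood well apart, with a log2 fold change of 2.94 ± 0.18 (limma adjusted p = 1.03e-08). Bbs1, the subunit that binds ARL6 and the lowest of the group, had 82.1, 85.3 and 78.2 TPM in rod TRAP and 42.1, 54.2 and 41.7 TPM in retina. Its groups did not overlap either, with a log2 fold change of 1.24 ± 0.11 (limma adjusted p = 4.23e-07). Arl6 (2.45), Bbs5 (2.05), Ttc8 (1.87), Bbs10 (1.87), Bbs9 (1.81), Bbs4 (1.68), Bbs12 (1.42) and Bbs2 (1.40) lay between.

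All 10 transition zone genes were higher as well, with a median of 1.89 and a range of 0.45 to 4.51. Cep290, a gate protein of the transition zone whose mutations are a known cause of congenital blindness, had 33.9, 30.3 and 24.9 TPM in control rod TRAP and 2.3, 1.7 and 0.8 TPM in control retina. The difference was the largest among the 43 members, with a log2 fold change of 4.51 ± 0.22 (limma adjusted p = 1.67e-09). Nphp4, a nephrocystin at the base of the cilium, had 15.6, 14.1 and 13.0 TPM in rod TRAP and 10.6, 14.0 and 13.3 TPM in retina, and these TPM ranges overlapped. On the scaled counts its log2 fold change was 0.45 ± 0.13 (limma adjusted p = 0.00667), and with log2(TPM + 1) it was not called (adjusted p = 0.426). Rpgrip1l (3.11), the GTPase regulator Rpgr (2.73), lebercilin Lca5 (2.69), Cc2d2a (2.41), Ahi1 (1.37), Iqcb1 (1.34), Rpgrip1 (1.32) and Spata7 (1.02) were between these values. Rpgr codes for several transcripts that share exons, and the tables held 1 value for the gene.

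All 5 lipidated cargo genes were higher, with a median of 0.73. The regulators of ARL3, Rp2 (3.06 ± 0.20) and Arl13b (3.02 ± 0.19), had larger values than the abundant Arl3 (0.73 ± 0.13), Unc119 (0.63 ± 0.14) and Pde6d (0.38 ± 0.13). This order did not hold with the correction for GC content described below, where Unc119 (1.59) lay above Rp2 (1.28). Rp2 had 11.2, 11.8 and 8.7 TPM in control rod TRAP and 1.3, 2.2 and 1.4 TPM in control retina, with no overlap (limma adjusted p = 2.69e-08). Pde6d had 326.5, 300.7 and 333.9 TPM in rod TRAP and 313.4, 288.9 and 318.5 TPM in retina, and these overlapped in TPM (limma adjusted p on scaled counts = 0.0215). Their cargo, transducin Gnat1, the phosphodiesterase subunits Pde6a and Pde6b and rhodopsin kinase Grk1, was higher in 4 of 4 genes, with log2 fold changes of 1.17 to 1.97.

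**Figure D3:**
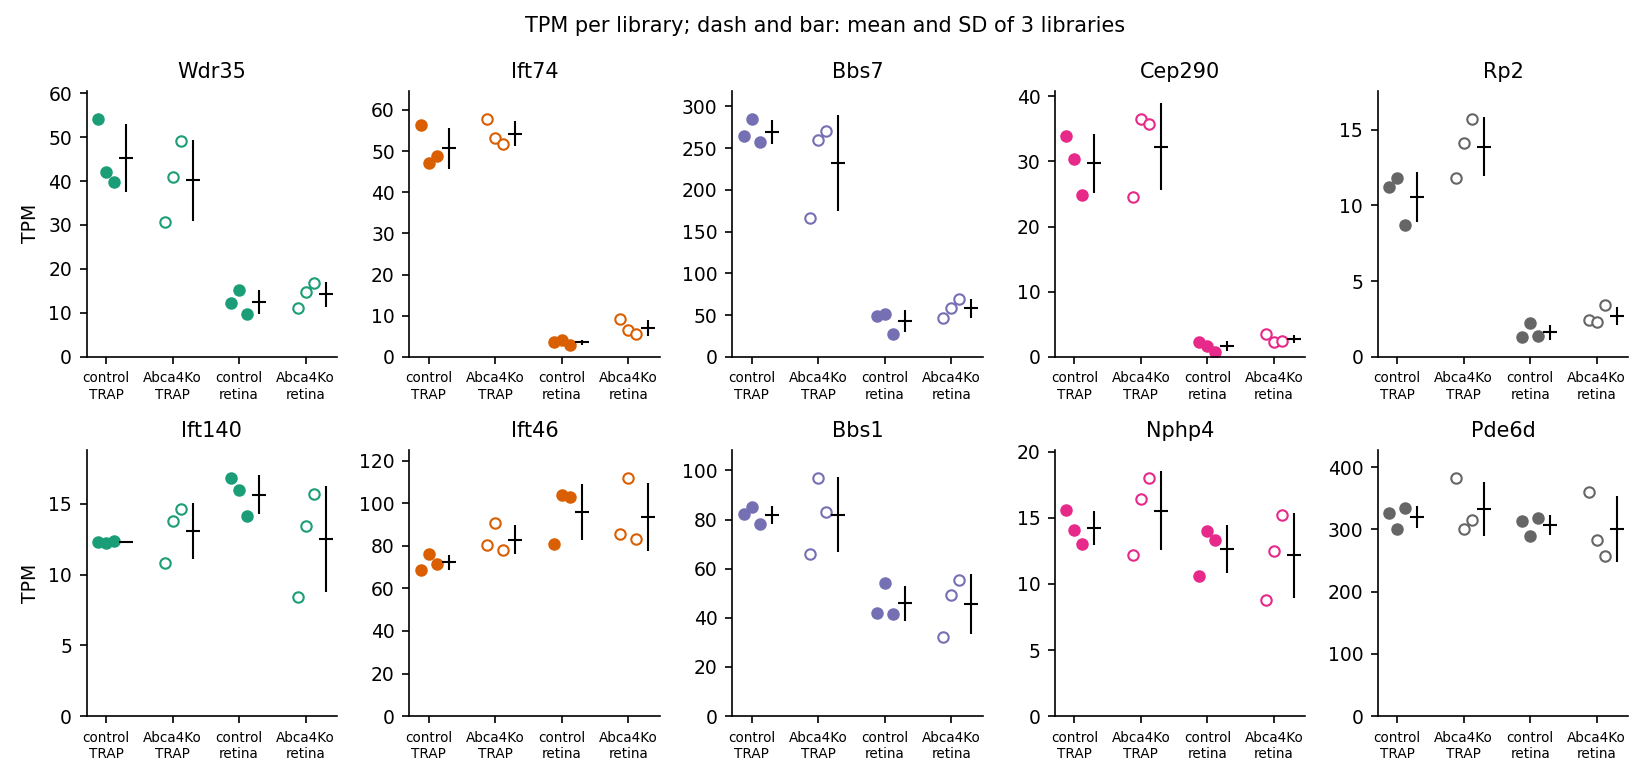
TPM in each library (vertical axes, each from 0) for the genes with the highest (upper row) and lowest (lower row) log2 fold change in control within IFT-A, IFT-B, BBSome, transition zone and lipidated cargo, from left to right; filled points are control and open points Abca4Ko libraries, and dashes with bars give the mean and SD of 3 libraries. In the upper row rod TRAP and retina libraries stand apart, while in the lower row only Bbs1 separates the fractions in both genotypes.

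In Abca4Ko, 38 of the 43 members were higher in rod TRAP than in retina and 0 were lower, also at an unadjusted p under 0.05 (limma), against 30.4% higher and 33.7% lower of 16036 genes. The same 38 were higher in control, and Pde6d was called in control only (Abca4Ko 0.40 ± 0.26, limma adjusted p = 0.191). With the replicate block described in the processing notes Pde6d was called in Abca4Ko too (adjusted p = 0.0174). The call of Bbs12 in Abca4Ko (0.68) was lost in 6 of 17 alternatives, among them those without Abca4Ko rod TRAP replicate 2 or 3 and without Abca4Ko retina replicate 2 or 3 (limma adjusted p of 0.0569 to 0.0812), and it turned to lower with the correction for GC content. The median log2 fold change was 1.17. Values were smaller in Abca4Ko than in control for 35 of 43 members, by the interaction test below without a call: Cep290 had 4.51 in control and 3.77 in Abca4Ko, Ift74 3.99 and 3.35, Arl13b 3.02 and 2.11, and Bbs12 1.42 and 0.68. The interaction was positive in 12 of 43 members and in 8734 of 17273 genes. GC-poor genes at large had smaller values in Abca4Ko too. At 42% to 46% coding GC the median over all genes was 1.55 in control and 1.00 in Abca4Ko, and over 12 members 2.59 and 1.87. 

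Of 37 further genes of the same processes, listed by function, 8 of IFT had 6 higher and 1 lower in control, and 3 of the BBSome had 3 higher. Of 22 further transition zone genes, 13 were higher and 2 lower, and of 4 further lipidated cargo genes 0 were higher and 2 lower, against 36.6% higher and 38.8% lower of all genes. The highest was the BBSome regulator Lztfl1 at 3.33 and the lowest Tulp3, an adaptor of IFT-A for membrane receptors, at -4.31. Within Abca4Ko the log2 fold change of Tulp3 in rod TRAP against retina was -3.68. The lower lipidated cargo genes were Arl2, a GTPase related to ARL3, at -1.49, and Arl2bp, which binds ARL2, at -0.65.

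The fraction differences varied with the GC content of the coding sequence. Over the 43 members, Spearman's rho between the GC content and the log2 fold change of rod TRAP against retina in control was -0.67 (Pearson's r -0.67), and over 13308 genes with a coding sequence rho was -0.50. The points share the same 6 libraries, and genes are not independent replicates. In genes of 42% to 46% GC the median log2 fold change was 2.59 for 12 members and 1.55 for 1365 genes. At 46% to 50% it was 1.74 for 16 members and 0.66 for 2406 genes, and at 50% to 54% it was 0.69 for 8 members and 0.07 for 2859 genes. In each of these classes the median of the members was above that of all genes. Single members such as Bbs12, Ift20 and Ift46 lay below the median of all genes in their class. Coding length went with the difference more weakly, with a rho of 0.37 over members and 0.14 over all genes.

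**Figure D4:**
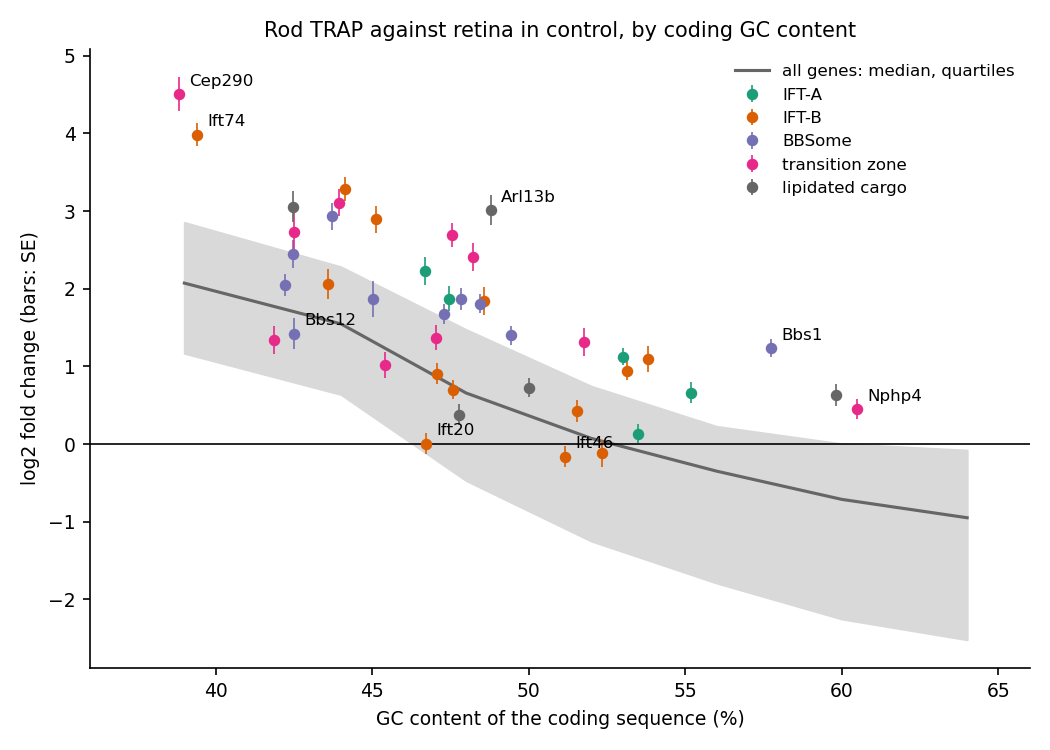
Log2 fold change of rod TRAP against retina in control (vertical axis, bars for the SE, 3 libraries a group) against the GC content of the coding sequence (horizontal axis, %) for the 43 genes, coloured by group; the grey line and band give the median and quartiles of all genes in classes of GC content. Values fall with GC content in members and in all genes, and Cep290, Arl13b and Bbs1 lie above the band while Ift20 and Bbs12 do not.

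A fit with each library's trend on GC content subtracted was added after these values were seen. With it, 34 of 43 members were higher and 3 lower in control (limma). Of the 13308 genes with a coding sequence, to which this fit was limited, 44.7% were higher and 36.8% lower. In control, 33 members were called higher with and without the correction. In Abca4Ko 33 members were higher and 3 lower, against 39.8% and 32.7% of 13054 genes with a coding sequence. The members' medians were 1.18 and 1.02, and the median of the 13308 genes in control was 0.15. For the rod markers the corrected median in control was 2.03, above that of the members. Arl13b (2.58), Cep290 (2.29) and Bbs1 (2.01) had high corrected log2 fold changes, Nphp4 moved from 0.45 to 1.43 and Unc119 from 0.63 to 1.59. Ift20, Iqcb1 and Bbs12 were lower after the correction, at -0.90, -0.53 and -0.35, and Ift140 became higher at 0.41 (adjusted p = 0.00193). Arl3 had 0.50 and Pde6d -0.28, the latter not called (adjusted p = 0.0965). By group, the corrected medians were 1.18 for IFT-A, 0.46 for IFT-B, 0.99 for the BBSome, 1.39 for the transition zone and 1.28 for lipidated cargo. Of the further genes, 6 of IFT were higher and 2 lower of 8, 2 of the BBSome higher and 0 lower of 3, 18 of the transition zone higher and 2 lower of 21 with a coding sequence, and 2 of lipidated cargo higher and 2 lower of 4.

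Abca4Ko was compared with control in rod TRAP to ask whether loss of the flippase was accompanied by changed ciliary RNA in rods. None of the 43 members was called by limma, 0 higher and 0 lower, against 0.733% higher and 0.397% lower of 13104 genes, and 3 had an unadjusted p under 0.05, as did 10.4% of all genes. The log2 fold changes ranged from -0.34 for Rpgrip1 to 0.33 for Ift46, with a median of 0.01, and 38 of 43 were within 0.2 of 0. Their SEs were 0.08 to 0.23. In 4 members all Abca4Ko libraries were above all control libraries, against 8.55% of all genes. In 2 members all were below, as in 1189 of 13104 genes.

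The 3 members with the smallest p in this comparison were Ift46, Rp2 and Ift172. Ift46 had 80.2, 90.9 and 77.9 TPM in Abca4Ko rod TRAP, each above the highest control library at 76.2 (log2 fold change 0.33 ± 0.10, limma adjusted p = 0.255). Rp2 had 11.8, 14.1 and 15.7 TPM in Abca4Ko against 11.2, 11.8 and 8.7 in control, so that the ranges met at 11.8 (0.25 ± 0.10). Ift172, the largest IFT-B subunit, had 18.3, 24.3 and 36.5 TPM against 30.0, 28.6 and 25.2, and these overlapped (-0.26 ± 0.11, adjusted p = 0.434 by limma). Rpgrip1 had 75.9, 190.4 and 147.7 TPM in Abca4Ko and 194.8, 190.3 and 182.1 in control, so that 1 library, replicate 1, was low. In retina the same replicate was low too, with 41.3 TPM against 85 and 105.4. Without the library labelled Abca4Ko rod TRAP replicate 3, 0 members were called. Without replicate 1, 1 member was called higher: Bbs12, at 0.34 (limma adjusted p = 0.0499), with 12.0, 22.7 and 21.4 TPM in Abca4Ko and 15.6, 17.8 and 16.6 in control. The summed scaled count of 10 cone markers was 6756 to 8134 in Abca4Ko rod TRAP and 5162 to 5558 in control rod TRAP, and its part in these values was not tested.

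In retina, 0 of 43 members were called higher and 0 lower by limma, against 0.0884% and 0.0177% of 16964 genes, and 9 had an unadjusted p under 0.05, as did 12% of all genes. The members leaned to higher values in Abca4Ko, with a median of 0.28 against -0.02 over all genes. Of the 43, 30 had positive values, against 8116 of 16964 genes, and the range was -0.28 for Ift27 to 0.85 for Rp2. All Abca4Ko libraries were above all control libraries in 7 members, against 10.4% of all genes. They were below in 2 members and in 1607 of 16964 genes. Rp2 had 2.4, 2.3 and 3.4 TPM in Abca4Ko retina and 1.3, 2.2 and 1.4 in control, with no overlap (0.85 ± 0.29, limma adjusted p = 0.40). Arl13b had 32.6, 30.3 and 43.4 TPM against 21.7, 26.6 and 10.2, again with no overlap (0.77 ± 0.26). Bbs12 had 12.4, 12.8 and 14.6 TPM against 9.3, 9.1 and 5.3 (0.78 ± 0.24). In Arl13b and Bbs12 the lowest control library was replicate 3 of control retina. The same held for Rp2 in scaled counts, with 58, 66 and 33 in control retina replicates 1, 2 and 3. Control retina replicate 3 stood apart in the median log2 deviation of GC-poor minus GC-rich genes, at -1.79 against -1.15 to -0.51 in the other 5 retina libraries. The control retina libraries also enter the fraction comparison in control, so the comparisons are not independent.

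Here too the values followed GC content, with a rho of -0.77 over the 43 members and -0.58 over 13661 genes. At 42% to 46% GC, 12 members had a median of 0.51 and all 1386 genes of the class 0.46. At 46% to 50% the medians were 0.27 and 0.20. Of the members, 13 exceeded 0.5 without the GC correction and 1, Arl13b at 0.60, exceeded it with the correction, when the median of the members was 0.03. In rod TRAP, where rho was -0.06 over the members, the corrected median was 0.03. Without the library labelled Abca4Ko retina replicate 3, and without control retina replicate 3, 0 members were called.

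**Figure D5:**
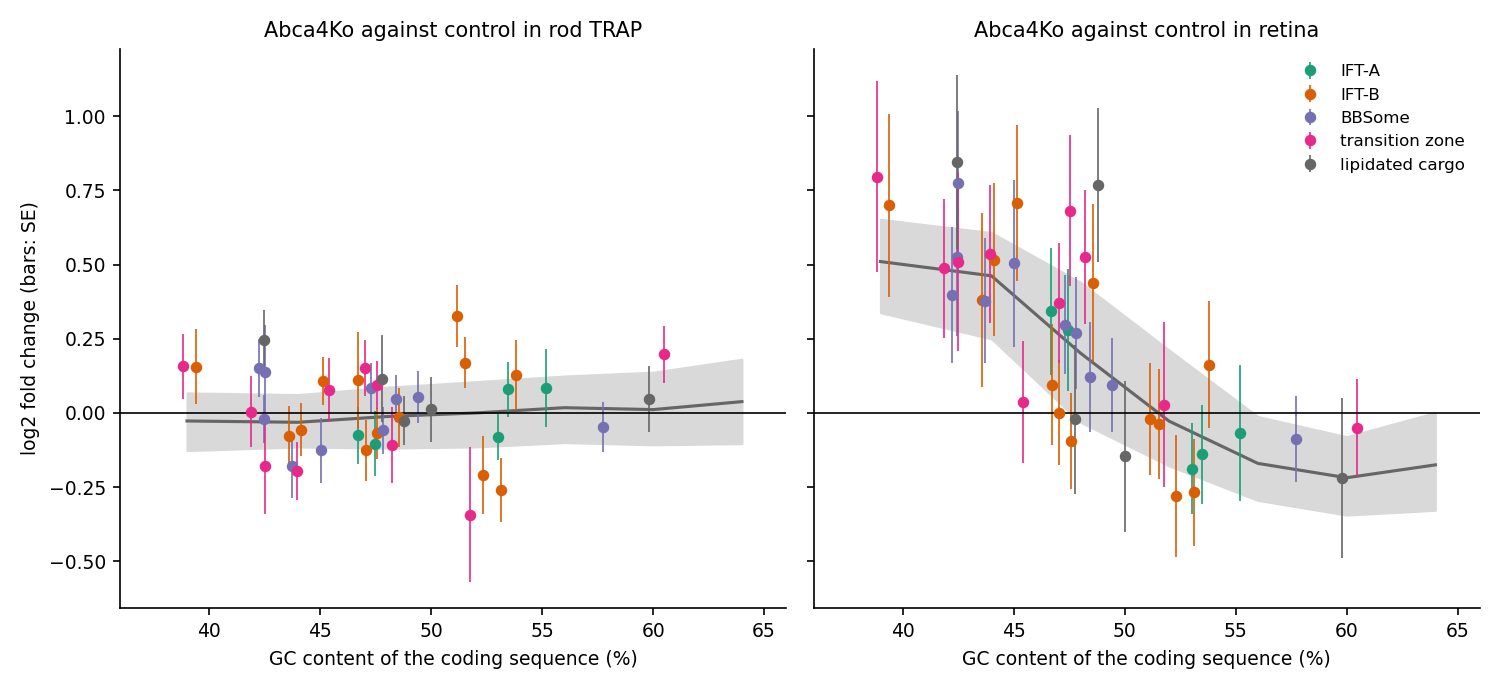
Log2 fold change of Abca4Ko against control (vertical axis, bars for the SE, 3 libraries a group) against the GC content of the coding sequence (%) in rod TRAP (left) and retina (right) for the 43 genes, with the median and quartiles of all genes in grey. In rod TRAP the members lie around 0 at every GC content, and in retina they fall with GC content along the grey line.

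The test of the difference between the fractions, the genotype by fraction interaction over all 12 libraries, called 0 of 43 members, with 0 higher and 0 lower by limma, against 0.00579% higher and 0% lower of 17273 genes, and 7 members had an unadjusted p under 0.05, as did 11.3% of all genes. The median interaction was -0.27 for the members and 0.01 for all genes, and -0.02 for the members with the GC correction. Arl13b had -0.82 ± 0.29, or -0.67 with the correction, and a limma adjusted p of 0.407. Leaving out both libraries labelled Abca4Ko replicate 3 also gave 0 calls.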

How the data were processed

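RNA of rod TRAP and retina lysate was made into cDNA with a low-input poly(A) kit, from 10 ng for TRAP and 5 ng for lysate. The submitters' processing notes name CASAVA 1.8.2, HISAT2, DESeq2, edgeR and GRCm39; the annotation and strand setting are not given in the sources used here. The deposited scaled counts, used as a score, are whole numbers that the authors brought to a common total in each fraction, 17096515 to 17097707 for rod TRAP and 17860761 to 17862326 for retina, so they are no raw counts. In 7 of 12 libraries the spacing of low values matched a scaling factor (correlation above 0.5) that puts the depth at 14800000 to 23200000 reads. The deposited TPM values were computed by the authors and are rounded to 1 decimal.

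From the scaled counts, genes with at least 10 in 3 libraries were kept, normalized by trimmed means (trims of 0.3 and 0.05) and fitted as log2(CPM + 0.5) with limma 3.58.1 in R 4.3.3 (trend, robust); log2 fold changes are on that scale, which understates low genes. Tests were two-sided, with Benjamini-Hochberg adjusted p under 0.05 over all genes tested. The fits were also run on simulated counts in which few genes changed and libraries were not paired. The fraction comparisons differ from that setting in both respects, so the simulated counts cannot check their calls. A rod TRAP and a retina library of the same number and genotype deviated together over genes (r = 0.16 to 0.43 in 6 of 6 pairs). For Abca4Ko rod TRAP replicate 2, a retina library of another number had a higher r (0.23) than that of its own (0.21). The fraction comparisons were also fitted with the replicate number as a block. Between genotypes the numbers did not pair the libraries. Nothing says that replicates of a group came from separate animals, so p-values measure the spread between these libraries. GC content and coding length came from the longest GENCODE M21 coding sequence of each gene, used for sequence only, since the builds differ; coding length took the place of protein length. The ratio of scaled counts to TPM, a stand-in for the counted length, had a rho of 0.34 with the fraction difference over 43 members.

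The members, gene lists and tests were chosen with earlier results of these data known. Values per library are given for the member with the highest and the lowest fraction difference in control in each group, for members called between genotypes and for the 3 with the smallest p in each genotype comparison; the 5 highest in TPM are named for level. Alternatives were other scalings, filters, pseudocounts, TPM, other limma settings, the block, leaving out each library and, added after seeing the data, the GC correction (lowess, span 0.2).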

Additional observations from a re-analysis of the deposited data

Results flagged for a closer look

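Rpgrip1l was the only one of the 43 members in which the 3 Abca4Ko libraries moved opposite ways in the fractions, below all control libraries in rod TRAP and above all of them in retina on the normalized log2 scale of each fit. Among the 12890 genes tested in both fractions, 1.3% moved opposite ways in this manner. Its log2 fold change was -0.20 ± 0.10 in rod TRAP and 0.54 ± 0.23 in retina. The interaction was -0.75 ± 0.24 with a limma adjusted p of 0.407, and -0.30 with the GC correction. In TPM it had 9.9, 10.5 and 8.4 in Abca4Ko rod TRAP against 10.0, 13.3 and 12.5 in control, and these overlapped. The scaled counts in rod TRAP overlapped too, with 530 in Abca4Ko replicate 3 and 527 in control replicate 1. So the separation in rod TRAP was seen only after normalization. In retina it had 3.5, 2.6 and 2.0 TPM in Abca4Ko against 1.7, 1.4 and 1.1 in control, with no overlap.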

How the results depend on the processing

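Of 43 members, 30 to 39 were higher in rod TRAP than in retina in control under the 17 alternatives and 27 to 39 in Abca4Ko, with the lowest counts under the authors' scaling alone, which moves the median of all genes in control from -0.03 to -0.62. Members called lower, 0 in the fit reported, numbered 4 in control and 3 in Abca4Ko under the authors' scaling, 3 and 1 with log2(TPM + 1), 3 and 3 with the GC correction, and 4 and 3 with the GC correction and the replicate block. The replicate block alone gave 39 higher in control and 39 in Abca4Ko, the change being Pde6d, and moved no other call of the named members.

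In control, the group medians under the authors' scaling were 0.48 for IFT-A, 0.30 for IFT-B, 1.20 for the BBSome, 1.25 for the transition zone and 0.082 for lipidated cargo. With log2(TPM + 1) they were 0.83 for IFT-A, 1.47 for the BBSome and 0.42 for lipidated cargo, and by median of ratios IFT-A had 1.02. With the GC correction, with and without the block, IFT-B had 0.46, the BBSome 0.99, the transition zone 1.39 and lipidated cargo 1.28. Leaving out 1 library gave 0.98 to 1.17 for IFT-A, 1.53 to 1.96 for the BBSome and 1.57 to 2.00 for the transition zone, each lowest without control retina replicate 3.

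Under the authors' scaling Ift140 (-0.50), Nphp4 (-0.19) and Pde6d (-0.27) reversed in control and Ift46 (-0.46) in Abca4Ko. With the GC correction, with and without the block, Pde6d (-0.28) and Bbs12 (-0.35, in Abca4Ko -0.50) reversed. Pde6d in control lost its call in 7 alternatives and reversed in 3 of 17, and Bbs12 in Abca4Ko lost its call in 6 and reversed in 2 of 17. In Abca4Ko, Bbs12 (0.15 and 0.42), Nphp4 (0.05 and 0.34) and Ift172 (0.31 and 0.65) lost their calls under the authors' scaling and with log2(TPM + 1), and Nphp4 in control (0.17) with log2(TPM + 1). Leaving out 1 library gave 0 to 1 members called higher between genotypes in rod TRAP, the 1 being Bbs12 without Abca4Ko replicate 1, and 0 in retina and in the interaction.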
